A study of Mus musculus with 12 samples.

Results

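Poly(A) RNA levels of 6 genes that sense or dispose of foreign compounds were followed through the mouse small intestine. They were chosen by name as a pathway set, with no threshold on a measured value: the nuclear receptors Nr1i2 (PXR) and Nr1i3 (CAR), the aryl hydrocarbon receptor Ahr, the efflux pumps Abcb1a (P-glycoprotein) and Abcg2 (BCRP), and Por, the reductase that feeds electrons to microsomal cytochrome P450 enzymes. They are 6 of the 19012 gene symbols in the series, and each passed the filter on low values in all fits. Crypts and villi were freshly isolated, and organoids, which are epithelial cultures started from isolated crypts, had been kept for 12 weeks. Each tissue came from duodenum, jejunum and ileum of mouse, which gives 9 groups. Crypts had 2 libraries per origin (replicates 1 and 2), and organoids and villi had 1 per origin. Strain, age, sex and any treatment of the mice are not given in the labels, which name no genetic change. The labels do not say whether libraries came from separate animals, so p-values measure only the spread between these samples, which may be technical.

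PXR and CAR are ligand-activated transcription factors that pair with the retinoid X receptor RXR and switch on genes for cytochrome P450 enzymes, conjugating enzymes and transporters, and AHR does so with its partner ARNT, most strongly at Cyp1a1. In the gut these receptors meet food and microbial compounds first. P-glycoprotein and BCRP sit in the luminal membrane of enterocytes and pump compounds back out, and POR is the obligate electron donor of the microsomal P450 enzymes.

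Levels are the deposited RPKM, that is, read numbers divided by exon length and by library size. Implied depth was between 5268480 and 18591819 reads per library, of which 44.3% to 75.8% lay in annotated genes. The tissue labels were set against marker genes. The summed RPKM of 12 enterocyte genes was 50774 to 100225 in villi, and that of 6 Paneth cell genes was 71.5 to 550.2 in villi against 7559 to 17585 in organoids. Crypt libraries stood apart by replicate number. Enterocyte genes summed to 757 to 1921 in crypt replicate 1 and 8469 to 24052 in crypt replicate 2, Paneth cell genes to 8834 to 29526 and 2157 to 9067, and 9 stem and cycling cell genes to 487 to 1251 and 146 to 559. Organoids had enterocyte sums of 2791 to 5025. In villi, 12 leukocyte genes summed to 80.9 to 213 (crypts 8.16 to 69.5, organoids 6.99 to 17.5) and 9 fibroblast and muscle genes to 23.7 to 65.3 (crypts 1.20 to 10.3, organoids 0.345 to 1.88). The endothelial sum was 1.21 to 3.17 in all libraries. The part of these cell mixtures in the results below was not tested, and in bulk RNA fewer cells of a type and less RNA per cell cannot be told apart.

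**Figure D1:**
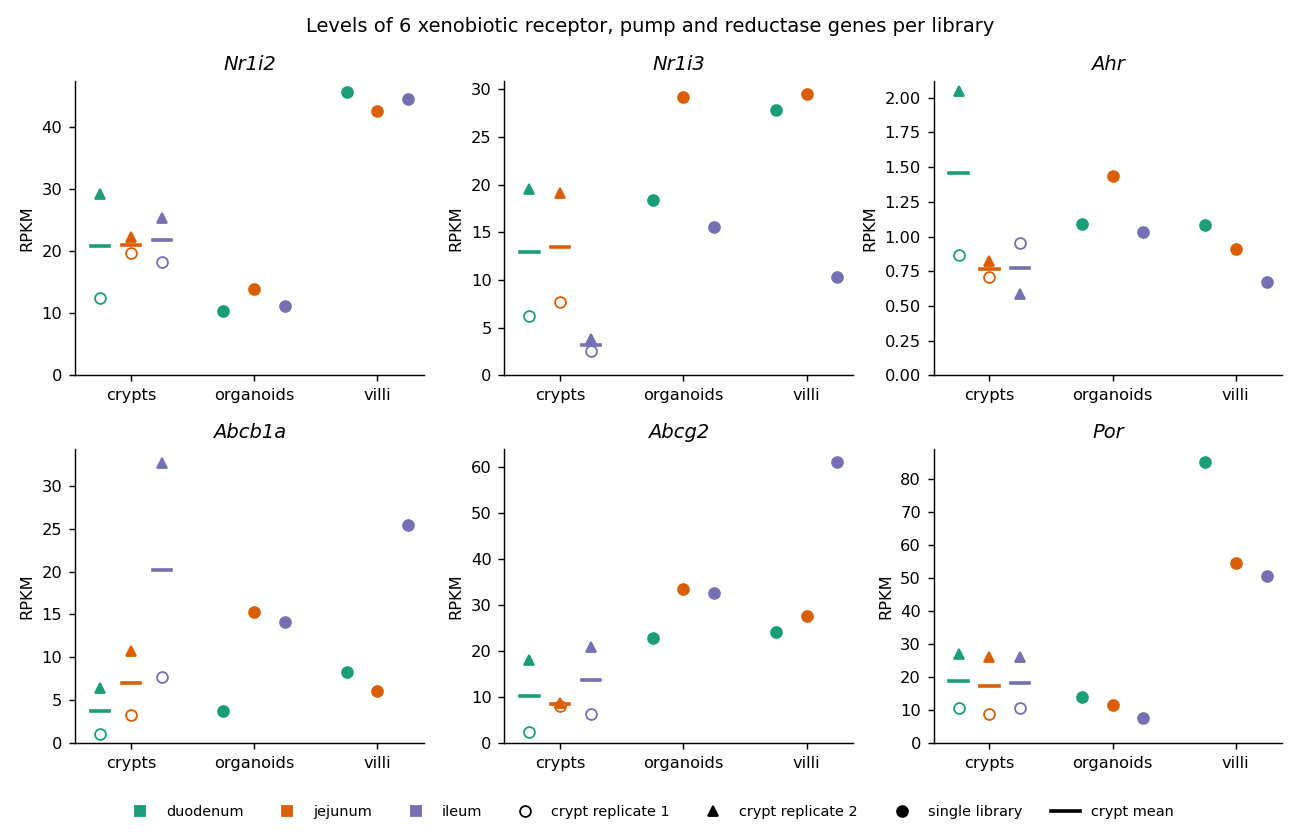
RPKM of the 6 genes in each of the 12 libraries (linear axes from 0). Open circles are crypt replicate 1, triangles crypt replicate 2, bars their mean, and filled circles the single organoid and villus libraries, coloured by origin. Nr1i2 and Por are highest in the 3 villus libraries, Abcb1a is higher in ileum than in duodenum in each pair of libraries, and crypt replicate 2 lies above replicate 1 for 5 of the 6 genes at each origin.

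Nr1i2, the gene of PXR, had its highest levels in villi and its lowest in organoids. In mm9 it lies on the reverse strand of chromosome 16 from 38248434 to 38294909; positions are printed as deposited, and whether they count from 0 or 1 is not stated. For duodenum, jejunum and ileum in that order, its level was 12.5, 19.7 and 18.2 RPKM in crypt replicate 1 and 29.2, 22.3 and 25.3 RPKM in crypt replicate 2. Organoids had 10.4, 13.9 and 11.3 RPKM, and villi 45.7, 42.6 and 44.5 RPKM. All 3 villus libraries lay above all 6 crypt libraries, and organoid and crypt libraries overlapped only through crypt duodenum replicate 1. The rise in villi over crypts was 1.07 ± 0.27 (SE) on the log2(RPKM + 1) scale used for all differences below (adjusted p = 0.00463, 95% interval 0.50 to 1.65). Organoids fell below crypts by 0.76 ± 0.27 (SE; adjusted p = 0.0328) and villi lay above organoids by 1.83 ± 0.31 (SE; adjusted p = 0.000228). The organoid call was lost without any 1 of 5 libraries, with adjusted p-values of 0.0561 without crypt jejunum replicate 2, 0.0668 without crypt ileum replicate 2, and 0.121, 0.0568 and 0.134 without the duodenal, jejunal and ileal organoids. Against crypt replicate 1 alone it was -0.46 (adjusted p = 0.0902). Ileum minus duodenum was 0.09 (95% interval -0.48 to 0.67). The villus rise was 1.37 against crypt replicate 1 alone and 0.77 (adjusted p = 0.0160) against crypt replicate 2 alone. The 2 annotated transcripts share most of their exons, and the longer one is used here.

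The promoter of Nr1i2, chr16:38294775-38295074 on the reverse strand of GRCm38.p6 in RefSeq (250 bases before to 50 after the start), is shown because villus and crypt libraries of this gene did not overlap. It was searched on both strands for GCGTG, the core that AHR and ARNT bind, and for AGTTCA and AGGTCA, half-sites of nuclear receptors such as PXR and CAR. None of the 3 words occurs in it, while GCGTG occurs in 32.4%, AGTTCA in 14.0% and AGGTCA in 16.3% of all 32851 promoters of this length. RefSeq promoters were matched for 5 of the 6 genes, and Ahr was not matched. The promoter of Nr1i3, not printed here, also holds none of the 3 words.
Nr1i2 promoter: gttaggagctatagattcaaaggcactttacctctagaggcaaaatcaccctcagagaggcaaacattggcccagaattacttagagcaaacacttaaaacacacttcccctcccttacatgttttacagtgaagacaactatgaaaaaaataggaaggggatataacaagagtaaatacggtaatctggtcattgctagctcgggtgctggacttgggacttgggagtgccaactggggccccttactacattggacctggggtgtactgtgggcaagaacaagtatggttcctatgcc

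Nr1i3, the gene of CAR, was high in villi and organoids and lowest in ileal crypts. It lies on the forward strand of chromosome 1 from 173144100 to 173148974 (mm9). Crypt replicate 1 had 6.18, 7.71 and 2.61 RPKM and crypt replicate 2 had 19.6, 19.1 and 3.79 RPKM for duodenum, jejunum and ileum. In organoids it stood at 18.4, 29.2 and 15.6 RPKM, and in villi at 27.8, 29.5 and 10.3 RPKM. The tissues overlap, since the ileal villi lie below crypt replicate 2 of duodenum and jejunum. Relative to crypts the gene rose by 1.30 ± 0.37 (SE) in villi (adjusted p = 0.00981) and by 1.29 ± 0.37 (SE) in organoids (adjusted p = 0.0118), whereas villi and organoids differed by 0.01 (95% interval -0.90 to 0.93). Against crypt replicate 2 alone both calls were lost, at 0.78 (adjusted p = 0.0583) in villi and 0.76 (adjusted p = 0.0639) in organoids. The villus call was also lost without the duodenal villi (adjusted p = 0.0556) and the organoid call without the ileal organoids (adjusted p = 0.113). Its last 1041 bases overlap Tomm40l on the opposite strand, which was listed at 8.05 to 32.5 RPKM, and the sources used here do not say whether counting used strand, so reads of the 2 genes cannot be told apart there.

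The balance of the 2 nuclear receptors differed between tissues. The ratio of Nr1i2 to Nr1i3 RPKM was 0.475 to 0.723 in the 3 organoid libraries, 1.44 to 4.31 in villi and 1.17 to 6.98 in crypts. Per length, CAR RNA exceeded PXR RNA in all 3 organoid libraries, whose ratios did not overlap with those of the fresh tissues. In all 3 tissues the ratio was highest in ileum, at 6.98 and 6.68 in the crypts, 4.31 in the villi and 0.723 in the organoids. These ratios are descriptions and were not tested.

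Ahr had low levels, 0.585 to 2.05 RPKM over the 12 libraries. On the reverse strand of chromosome 12 from 36182650 to 36219660 (mm9), it was counted with 25 to 147 reads per library. Its level was 0.864, 0.710 and 0.956 RPKM in crypt replicate 1, 2.05, 0.826 and 0.585 RPKM in crypt replicate 2, 1.09, 1.44 and 1.03 RPKM in organoids and 1.08, 0.910 and 0.676 RPKM in villi. Crypt libraries overlapped with both other tissues. Villi lay below organoids in jejunum and ileum and near them in duodenum (1.08 against 1.09 RPKM). Villi minus organoids was -0.21 (95% interval -0.67 to 0.24, adjusted p = 0.401). It did not pass in any of the 8 comparisons, and the difference from crypts was -0.05 in villi (95% interval -0.45 to 0.34) and 0.16 in organoids (95% interval -0.23 to 0.56). With libraries rescaled to a common median ratio the villus difference turned to 0.15. Nr1i2 RNA exceeded Ahr RNA per length by 9.50 to 65.9 times.

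Abcb1a, which encodes the P-glycoprotein of the gut, had its highest levels in crypt ileum replicate 2 and in ileal villi. It lies on the forward strand of chromosome 5 from 8660091 to 8748569 (mm9). For duodenum, jejunum and ileum the level was 1.07, 3.34 and 7.68 RPKM in crypt replicate 1 and 6.44, 10.7 and 32.7 RPKM in crypt replicate 2. Organoids had 3.71, 15.3 and 14.1 RPKM, and villi 8.32, 6.04 and 25.4 RPKM. Ileum exceeded duodenum in all 4 pairs of libraries, 7.19 times in crypt replicate 1, 5.08 times in replicate 2, 3.79 times in organoids and 3.06 times in villi, although the pooled duodenal and ileal libraries overlap. Over tissues the difference was 1.86 ± 0.53 (SE), with an unadjusted p of 0.00365 and an adjusted p of 0.163, and the adjusted p was 0.00538 with the replicate number of the crypts as a block. With crypt replicate 1 alone it was 1.75 (adjusted p = 0.0481), and with crypt replicate 2 alone 1.79 (adjusted p = 0.0428). Villi exceeded crypts by 0.62 (95% interval -0.52 to 1.75) and organoids by 0.42 (95% interval -0.71 to 1.56), neither past the threshold. These 2 tissue differences hung on the crypt libraries: against crypt replicate 1 alone they were 1.49 (adjusted p = 0.00385) and 1.30 (adjusted p = 0.00955), and against crypt replicate 2 alone -0.25 and -0.45. The related neighbour Abcb1b, the other mouse gene of P-glycoprotein, was listed at 0 to 0.381 RPKM, and any reads shared by both genes cannot be assigned with certainty.

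**Figure D2:**
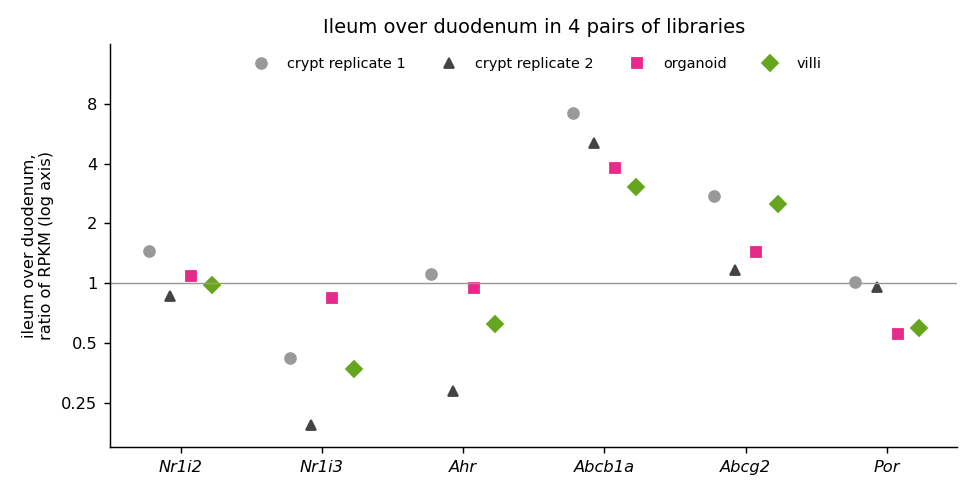
Ratio of ileal to duodenal RPKM (log axis) for the 6 genes in crypt replicate 1, crypt replicate 2, organoids and villi, 1 point per pair of libraries. Abcb1a lies at 3.06 to 7.19 and Abcg2 at 1.17 to 2.74, above 1 in 4 of 4 pairs, Nr1i3 at 0.193 to 0.844, below 1 in 4 of 4 pairs, and the other genes on both sides of 1.

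Abcg2, the gene of BCRP, was lower in crypts than in villi and organoids. Its locus is on the forward strand of chromosome 6, 58546665 to 58642444 (mm9). Crypt replicate 1 had 2.36, 8.19 and 6.46 RPKM and crypt replicate 2 had 18.0, 8.81 and 21.0 RPKM for duodenum, jejunum and ileum. Organoids had 22.8, 33.5 and 32.6 RPKM, and villi 24.3, 27.6 and 61.02 RPKM. No organoid or villus library overlapped with a crypt library. The gene rose by 1.84 ± 0.47 (SE) in villi over crypts (adjusted p = 0.00514) and by 1.61 ± 0.47 (SE) in organoids over crypts (adjusted p = 0.0128), while villi and organoids differed by 0.23 (95% interval -0.93 to 1.40). The organoid call was lost without the duodenal (adjusted p = 0.0534) or jejunal organoids (adjusted p = 0.0765). Against crypt replicate 2 alone the rise was 1.15 in villi (adjusted p = 0.00912) and 0.92 in organoids (adjusted p = 0.0296), and against crypt replicate 1 alone 2.53 and 2.30. Its ratio to Abcb1a was 0.643 in the lowest library, crypt ileum replicate 2, and 6.14 in the highest, the duodenal organoids.

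The promoters of the 2 pumps are shown with the half-sites in capitals, read from RefSeq on GRCm38.p6, both on the forward strand. That of Abcb1a, chr5:8566841-8567140, holds 1 AGTTCA at -176 from the start. Of the 3 listed starts of Abcg2, the most upstream, chr6:58584283-58584582, holds 2 AGGTCA words, at -212 (on the opposite strand) and -121. The middle one, chr6:58596422-58596721, holds none of the words searched, and the most downstream holds 1 AGGTCA and 1 GCGTG. The most upstream is printed for its words, and which start gave the counted RNA was not determined for either pump. Deposited positions are of mm9, and no promoter shown here was matched to the deposited start of its gene. A word may therefore lie outside the promoter of the counted transcript. A match is only a word in the sequence.
Abcb1a promoter: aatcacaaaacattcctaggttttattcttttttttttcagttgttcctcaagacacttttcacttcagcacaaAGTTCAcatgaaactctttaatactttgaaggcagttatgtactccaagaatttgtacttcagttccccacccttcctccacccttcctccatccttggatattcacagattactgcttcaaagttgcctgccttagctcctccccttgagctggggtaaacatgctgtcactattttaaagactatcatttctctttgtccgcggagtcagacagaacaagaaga
Abcg2 promoter: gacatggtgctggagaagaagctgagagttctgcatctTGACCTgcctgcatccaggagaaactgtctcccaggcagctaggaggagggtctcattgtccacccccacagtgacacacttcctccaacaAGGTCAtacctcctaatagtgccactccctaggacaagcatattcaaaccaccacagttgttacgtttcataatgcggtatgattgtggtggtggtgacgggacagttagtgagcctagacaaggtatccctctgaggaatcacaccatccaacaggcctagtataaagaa

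Por was highest in villi and did not differ detectably between crypts and organoids. It lies on the forward strand of chromosome 5 from 136165083 to 136211194 (mm9). In crypts its level was 10.7, 8.87 and 10.8 RPKM in replicate 1 and 27.2, 26.1 and 26.0 RPKM in replicate 2 for duodenum, jejunum and ileum. Organoids had 14.0, 11.5 and 7.74 RPKM, and villi 85.2, 54.5 and 50.7 RPKM. All villus libraries lay above all others, and organoids spanned crypt replicate 1. Por rose by 1.85 ± 0.39 (SE) in villi over crypts (adjusted p = 0.0015) and by 2.41 ± 0.44 (SE) in villi over organoids (adjusted p = 0.000443), where the ratio of RPKM was 6.08 in duodenum, 4.74 in jejunum and 6.56 in ileum. Organoids minus crypts was -0.57 (95% interval -1.40 to 0.27, adjusted p = 0.243). This value turned on the crypt libraries, at 0.09 against crypt replicate 1 alone and -1.22 (adjusted p = 0.0015) against crypt replicate 2 alone, and the adjusted p was 0.0274 with the replicate block. The villus rise was 2.499 against crypt replicate 1 alone and 1.20 (adjusted p = 0.00155) against crypt replicate 2 alone. The Por promoter, chr5:135688895-135689194 on the forward strand of GRCm38.p6 in RefSeq, is shown because it holds 3 GCGTG words (in capitals, 2 of them as CACGC on the other strand), at -202, -62 and -24. Its GC content was 67.3%. How many promoters hold 3 such words, or how often the word occurs at this GC content, was not counted.
Por promoter: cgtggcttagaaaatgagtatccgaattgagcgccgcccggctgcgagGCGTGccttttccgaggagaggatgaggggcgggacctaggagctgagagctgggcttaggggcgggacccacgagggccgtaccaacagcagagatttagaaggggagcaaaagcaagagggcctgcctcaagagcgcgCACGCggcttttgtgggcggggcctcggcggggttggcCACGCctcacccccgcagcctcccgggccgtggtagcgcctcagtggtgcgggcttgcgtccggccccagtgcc

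Counted together, 4 of the 6 genes passed in villi against crypts, all higher (Nr1i2, Nr1i3, Abcg2 and Por), where 52.8% of 11825 genes tested passed. Of those, 2402 were higher and 3845 lower, and the median of all genes was -0.19. In organoids against crypts 3 passed, Nr1i3 and Abcg2 higher and Nr1i2 lower, against a background of 47.4%, with 2760 genes higher and 2843 lower. Nr1i2 and Por, both higher, were the 2 that passed in villi against organoids, with 61.6% of genes called. The 2 comparisons with crypts share the crypt libraries. Rescaling all libraries by median ratios raised the median of all genes by 0.21 in villi against crypts and moved the share of called genes that were higher from 38.5% to 54.9%. The same 4, 3 and 2 counts of the 6 genes resulted. With crypt replicate 1 alone, 5 of the 6 passed in villi against crypts (60.7% of genes) and 3 in organoids against crypts (55.8%). With crypt replicate 2 alone, 3 passed in each (47.6% and 45.2%). With the replicate block 4 passed in organoids against crypts (55.8%). The block takes the shift between crypt replicates out of the spread, so its p-values for tissue differences may be too small. For Por in organoids against crypts the SE was 0.20 with the block and 0.39 without it. The shares of genes called are high in the whole transcriptome, so the counts alone do not set the 6 genes apart.

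**Figure D3:**
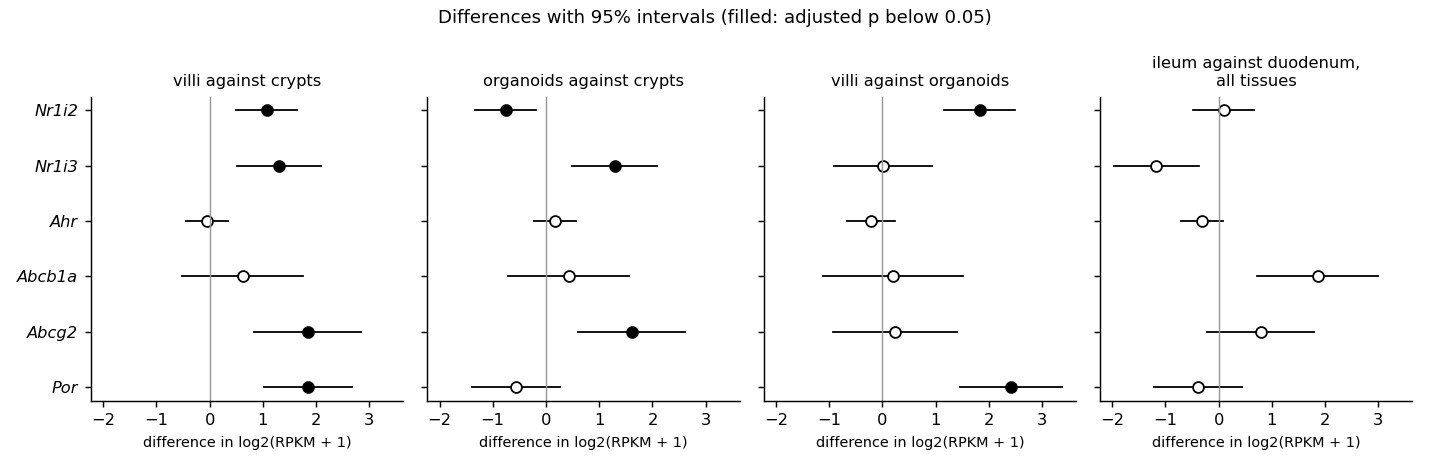
Difference in log2(RPKM + 1) with its 95% interval for the 6 genes in 4 comparisons over all 12 libraries, filled where the adjusted p is below 0.05. Filled points are 4 in villi against crypts, 3 in organoids against crypts, 2 in villi against organoids and 0 in ileum against duodenum, where the intervals of Abcb1a and Nr1i3 leave out 0.

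Along the gut 0 of the 6 genes passed in ileum against duodenum over all tissues in limma, where 0.609% of genes passed, and limma-voom on recovered reads also gave 0. Abcb1a and Nr1i3 had an unadjusted p below 0.05. Nr1i3 lay lower in ileum in all 4 pairs of libraries, at 0.423, 0.193, 0.844 and 0.371 of duodenum in crypt replicate 1, crypt replicate 2, organoids and villi. Its difference was -1.17 ± 0.37 (SE; adjusted p = 0.240). With the replicate block 2.55% of genes passed, and 2 of the 6 did, Abcb1a higher and Nr1i3 lower (adjusted p = 0.0245). In each set with 1 crypt replicate Abcb1a alone of the 6 passed, with 0.956% of genes called for replicate 1 and 1.29% for replicate 2. Paneth cell genes had a median of 1.99 and goblet cell genes of 1.27 in ileum against duodenum over all tissues (1 of 6 and 0 of 5 past the threshold). Medians of the other marker lists ran from -0.68 for enterocyte genes to 0.08 for fibroblast and muscle genes, with 0 past the threshold. The part of any of these cell types in the Abcb1a values was not tested.

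Within crypts ileum against duodenum gave 0 of the 6 genes at a background of 0.0360%, with Abcb1a at 2.12 and Nr1i3 at -1.55 (unadjusted p 0.0483 and 0.0445) and 0 in limma-voom. Jejunum against duodenum over all tissues gave 0 of the 6 genes, 0% of all genes tested, 343 genes at an unadjusted p below 0.05 and, in limma-voom, 4 genes, none of the 6. Whether the ileum-duodenum difference itself differed between tissues was tested with 9 group means. It gave 0% of genes in villi minus crypts and 0% in organoids minus crypts (463 and 333 genes at an unadjusted p below 0.05, and none of the 6). For Abcb1a these differences of differences were -0.62 (95% interval -4.77 to 3.53) and -0.45 (95% interval -4.59 to 3.70), intervals too wide to show whether organoids keep the difference of crypts.

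Crypt replicate 2 exceeded replicate 1 at all 3 origins for 5 of the 6 genes, by 1.13 to 2.33 times for Nr1i2, 1.45 to 3.17 for Nr1i3, 3.22 to 6.03 for Abcb1a, 1.07 to 7.63 for Abcg2 and 2.40 to 2.94 for Por. Ahr did so at 2 of 3 origins. The enterocyte sums above moved the same way, and their part was not tested. Within the crypt groups the pooled SD of log2(RPKM + 1) was 0.51 for Nr1i2, 0.81 for Nr1i3, 0.32 for Ahr, 1.25 for Abcb1a, 1.20 for Abcg2 and 0.92 for Por. When the 9 groups were ordered by mean log2 level, neighbours differed by more than this SD at 1 step for Nr1i2 (jejunal villi to ileal crypts), Nr1i3 (ileal villi to ileal crypts) and Por (ileal villi to duodenal crypts). No step of Ahr, Abcb1a or Abcg2 did.

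**Figure D4:**
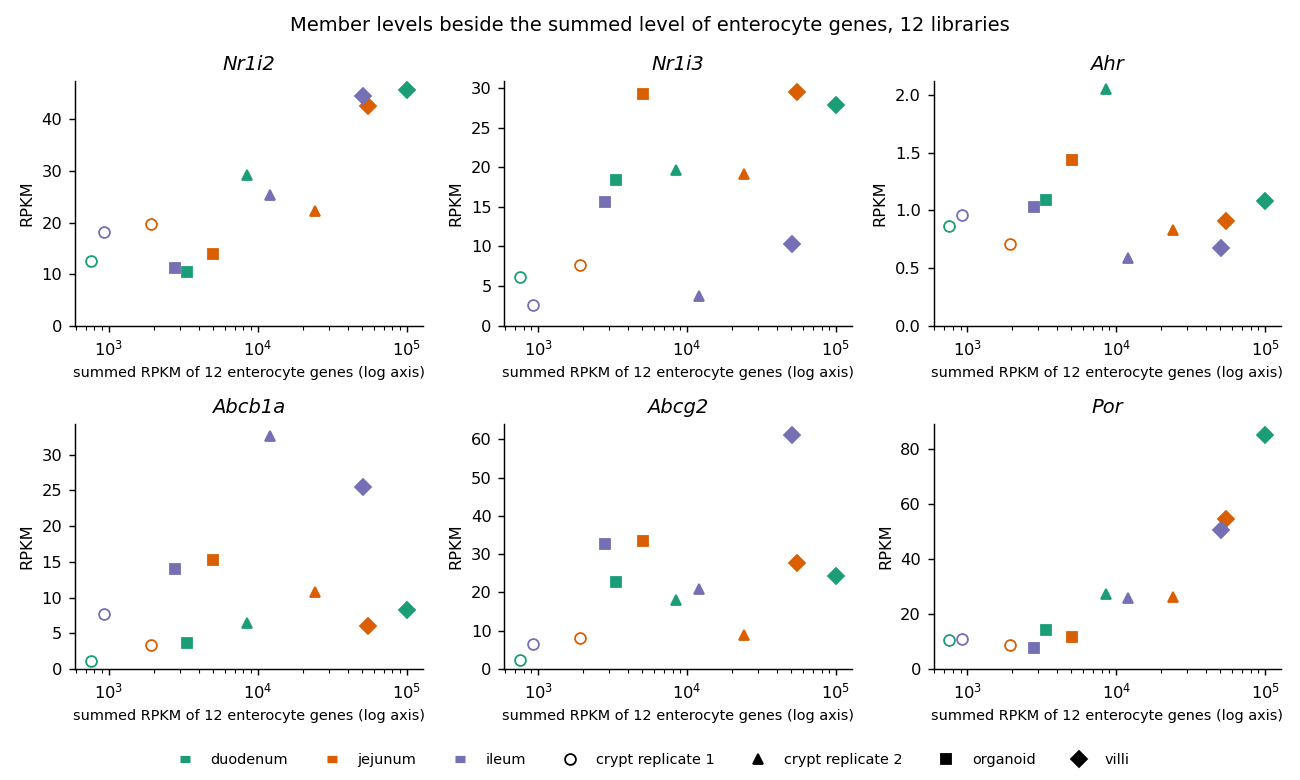
RPKM of the 6 genes (linear axes) against the summed RPKM of 12 enterocyte genes (log axis) in the 12 libraries, with tissue and crypt replicate as symbols and origin as colour. Crypt replicate 1 lies at sums of 757 to 1921, organoids at 2791 to 5025, crypt replicate 2 at 8469 to 24052 and villi at 50774 to 100225. The part of the enterocyte sums in the levels was not tested.

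Counts over the pathway lists stand beside 52.8% of all genes called in villi against crypts, 47.4% in organoids against crypts and 61.6% in villi against organoids. These shares belong to the model of all 12 libraries without the block. With crypt replicate 1 alone 60.7% of genes passed in villi against crypts and 55.8% in organoids against crypts. With crypt replicate 2 alone the shares were 47.6% and 45.2%. With the replicate block 55.8% passed in organoids against crypts. Shares for the other settings are not given here, so counts under them have no background beside them. Of 17 tested receptor partners, 4 rose and 4 fell in villi against crypts, 1 rose and 9 fell in organoids against crypts, and 7 rose and 3 fell in villi against organoids, with medians of 0.06, -0.62 and 0.63 beside -0.19, 0.00 and -0.21 over all genes. With crypt replicate 1 alone 4 rose and 6 fell in organoids against crypts, and with crypt replicate 2 alone 0 rose and 8 fell. Rxra, the RXR partner of PXR and CAR, was at 33.8 to 39.3 RPKM in villi, 11.1 to 20.1 in crypts and 1.31 to 3.03 in organoids, with no overlap between tissues. It fell by 2.22 ± 0.27 (SE) in organoids against crypts (adjusted p = 5e-05) and was 3.53 ± 0.31 (SE) higher in villi than in organoids (adjusted p = 2.76e-06). Hnf4a, a liver and gut nuclear receptor, fell by 1.89 in organoids (adjusted p = 0.000501), from 94.8 to 180.9 RPKM in crypts to 23.6 to 48.6 RPKM. The chaperone genes Hsp90ab1 and Hsp90aa1 and the co-chaperone gene Ptges3, whose proteins hold AHR in the cytosol, fell in villi by 2.96, 2.62 and 2.40 (adjusted p-values of 2.5e-05, 5.37e-06 and 1.31e-05). Arnt was at 2.82 to 6.20 RPKM over the tissues and did not pass.

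Cyp1a1, the best known AHR target, was at 7.25 RPKM in duodenal, 0.492 in jejunal and 0.275 in ileal villi, at 0 to 0.472 RPKM in crypts and at 0 to 0.0199 RPKM in organoids. It rose by 1.11 ± 0.37 (SE) in villi against crypts (adjusted p = 0.0236), the 1 gene of 7 tested (11 matched) that did, and 0 fell. Without the duodenal villi the difference was 0.27 (adjusted p = 0.187) and the call was lost, as it was against crypt replicate 2 alone (0.96, adjusted p = 0.0709). The call was also lost without the filter on low values (1.11, adjusted p = 0.0634). In organoids against crypts 3 of 7 rose and 0 fell: Gsta1, a glutathione transferase gene, by 3.21, Nfe2l2, which encodes the antioxidant regulator NRF2, by 1.27, and Tiparp, an AHR repressor gene, by 0.96 (adjusted p-values of 0.00343, 0.0203 and 0.0266). The Nfe2l2 and Tiparp calls were lost without the jejunal organoids (adjusted p-values of 0.0774 and 0.179) or the ileal ones (0.109 and 0.157), and that of Tiparp also without crypt jejunum replicate 1 (adjusted p = 0.0533). Without the duodenal organoids Tiparp rose by 1.45. The shares of all genes called were 52.8% and 47.4%, and both these shares and the list counts moved with the crypt libraries and the model. The shares were 60.7% and 55.8% with crypt replicate 1 alone, 47.6% and 45.2% with crypt replicate 2 alone, and 55.8% in organoids with the block. With the replicate block 4 of 7 rose in villi and 5 in organoids, with crypt replicate 1 alone 5 in each, and with median-ratio scaling 3 in each, while 0 fell. With crypt replicate 2 alone 0 rose and 1 fell in villi, and 1 rose in organoids. The median was 0.74 in villi and 0.53 in organoids, and -0.13 and -0.25 with crypt replicate 2 alone.

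In the model of all 12 libraries without the block, the PXR and CAR target genes that passed were higher in villi and in organoids than in crypts. Of 22 tested (31 matched, the others too low), 12 rose and 0 fell in villi (median 1.63) and 13 rose and 0 fell in organoids (median 2.003), beside 52.8% and 47.4% of all genes called. Among all 11825 genes tested, 2402 were called higher and 3845 lower in villi, and 2760 and 2843 in organoids. The number of targets called in villi, 12 of 22, is near the share of all genes and alone does not set them apart. With the replicate block 17 rose and 1 fell in each, where 55.8% of all genes passed in organoids. With median-ratio scaling 16 and 13 rose and 0 fell. The share of all genes in villi with the block, and both shares with the scaling, are not given here. Cyp3a11, a drug-oxidising P450 gene and textbook PXR target, was at 133 to 343 RPKM in villi, 0 to 43.7 in crypts and 19.8 to 56.9 in organoids and rose by 4.75 ± 1.11 (SE) in villi (adjusted p = 0.00323). Cyp2b10, the classic CAR target, rose by 3.82 ± 0.93 (SE) in villi (adjusted p = 0.00411) and 3.02 ± 0.93 (SE) in organoids (adjusted p = 0.0174), the latter lost without the duodenal (adjusted p = 0.0745) or ileal organoids (adjusted p = 0.108). The carboxylesterase gene Ces2 (now Ces2c) rose by 4.32 and 3.33 (adjusted p-values of 1.02e-05 and 9.78e-05). With crypt replicate 2 alone 11 rose and 1 fell in villi and 11 rose and 2 fell in organoids. The medians were then 0.83 and 1.11, and 47.6% and 45.2% of all genes were called. With crypt replicate 1 alone 18 and 19 rose and 0 fell, beside 60.7% and 55.8% of all genes called. These sets move with the enterocyte sums between the crypt replicates, and that part was not tested.

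Some target genes differed between villi and organoids. In villi against organoids 2 of the 22 rose and 5 fell (median 0.12), where 61.6% of all genes passed. With the replicate block, or with either crypt replicate alone, 8 rose and 7 fell, and with median-ratio scaling 6 rose and 5 fell. The shares of all genes called in these settings are not given here. Cyp2c29 and Cyp2c66, P450 genes of the Cyp2c family, were at 35.2 to 64.4 and 58.8 to 139 RPKM in organoids against 0.185 to 3.08 and 3.49 to 16.9 RPKM in villi, and were lower in villi by 4.56 and 3.30 on the log2 scale (adjusted p-values of 3.47e-06 and 0.000196). Gstm1, a glutathione transferase gene, fell by 2.75 in villi against organoids (adjusted p = 1.85e-05). Genes of the Cyp2c, Cyp3a, Gst and Ces families are similar, and reads shared among copies cannot be assigned with certainty.

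**Figure D5:**
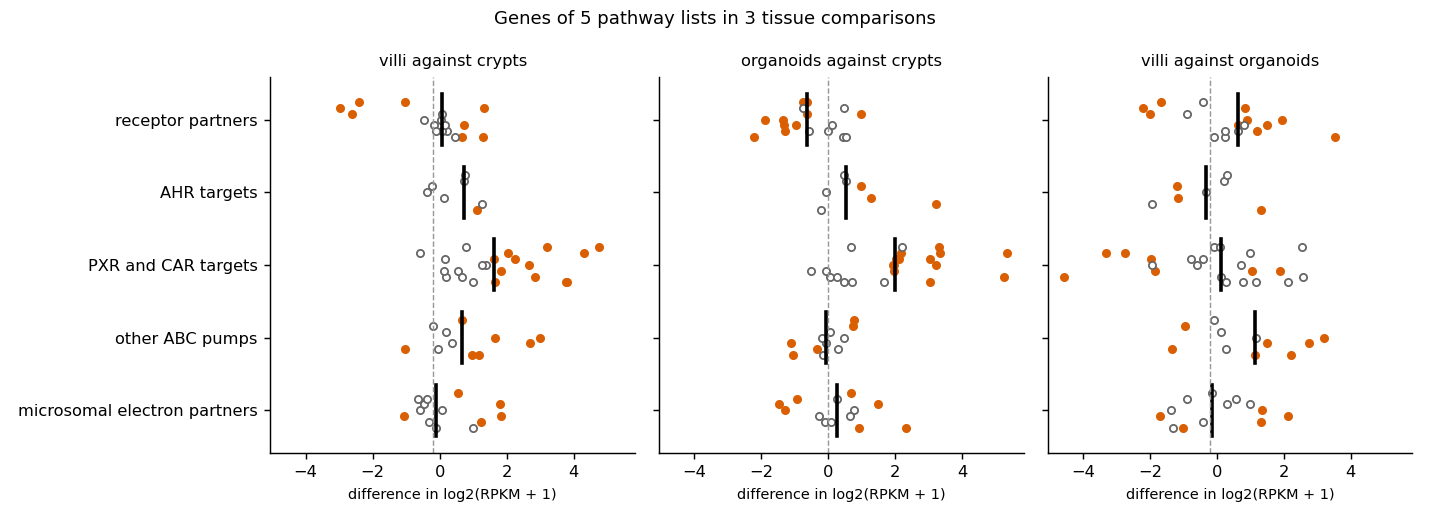
Difference in log2(RPKM + 1) of each tested gene of 5 pathway lists in 3 tissue comparisons, filled where the adjusted p is below 0.05. Black bars are list medians and dashed lines the median of all genes, at -0.19, 0.00 and -0.21; PXR and CAR targets have medians of 1.63, 2.003 and 0.12.

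Of 11 other ABC pumps tested, 6 rose and 1 fell in villi, 2 rose and 3 fell in organoids, and 5 rose and 2 fell in villi against organoids, beside 52.8%, 47.4% and 61.6% of all genes. In organoids 5 rose and 2 fell against crypt replicate 1 alone (55.8% of all genes), and 1 rose and 5 fell against crypt replicate 2 alone (45.2%). The sterol pump genes Abcg8 and Abcg5 rose most in villi, by 3.01 and 2.70 (adjusted p-values of 0.000116 and 0.00077), and stood at 10.6 to 18.1 and 17.7 to 36.2 RPKM in organoids against 129 to 146 and 161 to 201.2 RPKM in villi. Abcc2, which exports conjugates at the luminal membrane, rose in villi by 1.64 ± 0.48 (SE; adjusted p = 0.0114), a call lost without the duodenal villi (1.26, adjusted p = 0.102). Abcg2 differed by 0.23 between villi and organoids, where its relatives Abcg5 and Abcg8 differed by 2.76 and 3.21, and the difference between these differences was not tested.

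Among 13 tested partners of microsomal electron transfer, 4 rose and 1 fell in villi, and 4 rose and 3 fell in organoids, beside 52.8% and 47.4% of all genes. In organoids 7 rose and 2 fell against crypt replicate 1 alone (55.8% of all genes), and 2 rose and 5 fell against crypt replicate 2 alone (45.2%). Cyb5r3, the reductase of cytochrome b5, rose in villi by 1.82 ± 0.38 (SE; adjusted p = 0.00155), with 117 to 364 RPKM in villi and 40.4 to 66.3 RPKM in organoids. Cyb5 (now Cyb5a), cytochrome b5 itself, rose in organoids by 2.31 ± 0.56 (SE; adjusted p = 0.00444), at 719 to 1357 RPKM against 75.01 to 395 RPKM in crypts. Sc5d, a sterol desaturase gene, rose in both (adjusted p-values of 0.00586 and 0.0187), the organoid call being lost without the jejunal (adjusted p = 0.0922) or ileal organoids (adjusted p = 0.101). In ileum against duodenum 1 gene of the 7 lists passed, beside 0.609% of all genes tested, and this count alone does not set the lists apart. The gene was Nr1h4, the bile acid receptor FXR, higher by 1.84 ± 0.36 (SE; adjusted p = 0.0385). Its call was lost without any 1 of 9 libraries (adjusted p-values of 0.0517 to 0.172).

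Over the 9 group means, the genes whose log2 levels were most like those of each of the 6 were sought among the 11825 tested genes. For Nr1i2 these were Dennd3, Dgkq and Tom1l2, with Pearson r of 0.997, 0.996 and 0.996. For Nr1i3 they were Fabp1, a fatty acid-binding protein gene, Ugt2a3 and Cyp2c44 (0.968, 0.957 and 0.935), and for Abcg2 Rin2 and Insig2 (0.973 and 0.965). Por was closest to Isg15, Tmem184b and 2010107G12Rik (0.986, 0.985 and 0.985), Ahr to Es22, Ros1 and Egfr (0.912, 0.900 and 0.891), and Abcb1a to D730039F16Rik, Sh3gl2 and 2510003E04Rik (0.887, 0.881 and 0.878). Among the 6 the highest r was 0.94 for Nr1i2 with Por, followed by 0.63 for Abcb1a with Abcg2 and 0.50 for Nr1i3 with Ahr. The values describe 9 means that share tissues and libraries, and come without a test.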

How the data were processed

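The authors deposited RPKM per transcript for 12 mouse poly(A) RNA libraries, read on a SOLiD 4 per the labels' protocols and aligned with BWA to mm9 per the submitters' processing notes. No source used here states the counting rule. The longest transcript stood for each symbol. RPKM steps gave whole reads for at least 99.9535% of values (within 0.02 of a read).

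Genes entered a fit with 15 or more reads in total and RPKM worth 10 reads in a library of median size in 3 or more libraries (2 for crypts, 1 for the 9-mean fit), and were tested with limma 3.58.1 (R 4.3.3, with a trend of variance on level) on log2(RPKM + 1), a scale that shrinks the fold changes of low genes. The additive fit of tissue and origin takes the 3 origins as replicates of villi and organoids, so tissue and any preparation common to its libraries cannot be told apart. P-values are two-sided and Benjamini-Hochberg adjusted over 11825, 11123 (crypts) or 12740 (9 means) genes, with a threshold of 0.05. Fits were checked on simulated reads that varied independently between libraries. The simulation held no effect of the crypt replicate number, so it does not show how the fits behave under that effect.

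The genes and lists were chosen with earlier results of these data known. Named are the 6 genes, up to 3 called genes per list and comparison with the largest difference (up to 2 with the highest mean where none passed), 17 further pathway genes that may be named whatever their result, and the 3 genes most like each of the 6, of which 1 is not reported here. All 129 entries of 7 pathway lists matched a symbol, 2 of them the same one, and 74 of 78 entries of 9 marker lists did. Equal crypt replicate numbers deviated together, with r of 0.42, 0.51 and 0.79 between pairs of origins over 11123 genes, so the number also served as a block. In tissue comparisons the block removes this shift from the spread, while a like shift between preparations of villi or organoids stays unseen. Calls of tissue differences with the block are therefore less cautious than those without it. Alternatives were the pseudocount, the filter, scaling, transcript choice, limma-voom, the block and leaving out each library. Crypt replicates 1 and 2 alone were added after seeing the data.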

Additional observations from a re-analysis of the deposited data

How the results depend on the processing

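All values are differences in log2(RPKM + 1) or counts of genes. Across the planned settings other than leaving out a library, the counts of the 6 genes past the threshold stayed as reported, except with the replicate block, which gave 2 of 6 in ileum against duodenum and 4 in organoids against crypts and changed no other call of the 6 genes. The added settings gave 1 of 6 in ileum against duodenum with either crypt replicate alone. Genes past the threshold in ileum against duodenum were 72, and 113 with pseudocount 0.1, 17 without the filter, 132 with limma-voom, 302 with the block, 113 with crypt replicate 1 alone and 153 with replicate 2 alone. In crypts the 4 genes became 1, 0, 1 and 37 with pseudocount 0.1, no filter, limma-voom and the block. In jejunum against duodenum the count of 0 became 4 with limma-voom, 8 with the block, and 1 and 10 with crypt replicates 1 and 2 alone. Without the filter, 497 and 362 genes passed for villi minus crypts and organoids minus crypts, where the fit met genes without spread.

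Signs turned for small differences. In villi against crypts Ahr was 0.15 with median-ratio scaling and 0.033 with crypt replicate 1 alone, and Abcb1a -0.25 with replicate 2 alone. In organoids against crypts Por was 0.086 with replicate 1 alone and Abcb1a -0.45 with replicate 2 alone. Nr1i2 was -0.029 with median-ratio scaling and -0.042 with replicate 2 alone in ileum against duodenum, and in jejunum against duodenum Nr1i2 was -0.028 and Abcg2 -0.080 with replicate 2 alone. In villi minus crypts, median-ratio scaling gave -0.12 for Nr1i3 and -0.11 for Ahr, and in organoids minus crypts the most abundant transcript gave 0.012 for Nr1i2. The cause was not tested.

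Leaving out 1 library at a time gave 1 to 3 of the 6 genes in organoids against crypts, 3563 to 6378 genes there, 34 to 94 in ileum against duodenum, 0 to 6 in jejunum against duodenum and 0 to 6 in crypts. Ranges that crossed 0 were, in villi against crypts, Ahr -0.11 to 0.069; in organoids against crypts, Abcb1a -0.066 to 0.73; in villi against organoids, Abcb1a -0.15 to 0.68, Abcg2 -0.018 to 0.40 and Nr1i3 -0.28 to 0.34. In ileum against duodenum Nr1i2 ran from -0.13 to 0.31, and in jejunum against duodenum Nr1i2 from -0.090 to 0.34, Nr1i3 from -0.0031 to 0.59 and Abcg2 from -0.15 to 0.79. In crypts ileum against duodenum gave Nr1i2 -0.42 to 0.73, Abcg2 -0.57 to 1.93 and Por -0.66 to 0.61. In villi minus crypts the ranges were Nr1i2 -0.77 to 0.39, Nr1i3 -0.56 to 0.96, Ahr -0.23 to 0.48, Abcb1a -1.60 to 0.36 and Abcg2 -0.64 to 1.86. In organoids minus crypts they were Nr1i2 -0.62 to 0.53, Abcb1a -1.43 to 0.53 and Abcg2 -1.43 to 1.07. Where an origin was left with 1 crypt library, that library was assumed to vary like the others. Depth limits Ahr most, at 25 reads in the lowest library.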

Other observations

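Conjugating enzymes and uptake carriers stand beside the pumps in the path of a foreign compound. Of 24 tested conjugating enzymes, 9 rose and 3 fell in villi against crypts, and 15 rose and 1 fell in organoids against crypts, with medians of 0.86 and 1.39, beside 52.8% and 47.4% of all genes called. In villi 16 rose and 3 fell with median-ratio scaling, 14 and 3 with the replicate block, and 18 and 3 against crypt replicate 1 alone. The share of all genes called was 60.7% in the last of these and is not given here for the others. Gstt1 and Mgst1, glutathione transferase genes, rose in organoids by 3.30 and 2.94 (adjusted p-values of 2.36e-05 and 0.000762), and Sult1c2, a sulfotransferase gene, by 3.14 (adjusted p = 0.000118). In villi against organoids Sult1c2 fell by 4.95 and Ephx1, the microsomal epoxide hydrolase gene, by 3.77 (adjusted p-values of 5.86e-06 and 2.52e-06), while Sult2b1 rose by 3.68 (adjusted p = 0.000695). With crypt replicate 2 alone 7 rose and 4 fell in villi, and 9 rose and 3 fell in organoids, beside 47.6% and 45.2% of all genes. Against crypt replicate 1 alone 21 rose and 1 fell in organoids (55.8% of all genes).

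Of 13 tested uptake carriers, 6 rose and 4 fell in villi against crypts, and 0 rose and 5 fell in organoids against crypts, beside the same shares of all genes. Slc15a1, the peptide transporter gene of the luminal membrane, was at 149 to 217 RPKM in villi, 0.669 to 55.8 in crypts and 1.51 to 3.93 in organoids, and rose by 4.33 ± 0.90 (SE) in villi against crypts (adjusted p = 0.0015). Slc29a1, a nucleoside transporter gene, fell in villi by 3.13 ± 0.21 (SE; adjusted p = 1.16e-06). Slco3a1 and Slco2b1, organic anion carrier genes, fell in organoids by 2.35 and 1.77 (adjusted p-values of 1.65e-05 and 0.00745), the Slco2b1 call being lost without the ileal organoids (adjusted p = 0.0738). With crypt replicate 2 alone 0 rose and 8 fell in organoids (median -1.25, 45.2% of all genes called). With crypt replicate 1 alone 1 rose and 3 fell (median -0.15, 55.8% of all genes), and with the replicate block 1 rose and 8 fell (55.8%).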
